A study of Mus musculus with 6 samples.

Results

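Small leucine-rich proteoglycans (SLRPs) are secreted proteins of the extracellular matrix, and 9 genes of this family (Dcn, Bgn, Aspn, Lum, Fmod, Prelp, Omd, Ogn and Podn) were followed by symbol in the 19446 genes of the deposited table. The cells were cardiac fibroblasts (CFs) grown out by explant culture from atrial tissue of C57BL/6J littermates, labelled as 5 weeks old, and used as early-passage primary cultures. The methods of the paper give a number of littermates and an age range that includes 5 weeks. They do not say how many animals stood behind each culture. The comparison was made between 3 WT cultures and 3 cultures from CharmeKO mice, in which a poly(A) signal inserted into the Charme locus stops transcription of this long noncoding RNA. The libraries were poly(A)-selected and directional. Freshly isolated fibroblasts were not analysed here.

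The core proteins of SLRPs carry leucine-rich repeats that bind fibrillar collagens and govern how fibrils grow and pack. Decorin (Dcn), biglycan (Bgn) and asporin (Aspn) form class I, of which decorin and biglycan bear chondroitin or dermatan sulphate chains and decorin binds TGF-beta. Lumican (Lum), fibromodulin (Fmod), prolargin (Prelp) and osteoadherin (Omd) belong to class II, osteoglycin (Ogn) to class III and podocan (Podn) to the podocan class. In the heart, fibroblasts are the main source of this matrix.

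Several members lie beside each other in the genome (GRCm38 coordinates, GENCODE M21 annotation). Dcn (chr10:97479609-97518143, plus strand) and Lum (chr10:97565128-97572703, plus strand) were 47.0 kb apart. Aspn (chr13:49544443-49567565), Omd (chr13:49582462-49592822) and Ogn (chr13:49608046-49624501) followed each other on the plus strand with gaps of 14.9 and 15.2 kb. Prelp (chr1:133910304-133921414, minus strand) and Fmod (chr1:134037254-134048277, plus strand) were 116 kb apart, whereas Bgn (chrX:73483602-73495933, plus strand) and Podn (chr4:108014791-108096445, minus strand) stood alone. Podn shares its strand and part of its span with Scp2 and Gm23354 in this annotation, so its count is less certain than those of the other members.

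RefSeq promoter windows (GRCm38.p6) were matched by symbol for 7 of the 9 members (not Dcn and Lum), Podn having 2 starts. The 250 bases upstream of the start are printed below for Bgn, the most abundant and steadiest member, and for Ogn and Podn, whose levels moved together across the libraries (1 of the 2 Podn starts). Capitals mark 5 motifs found on either strand: the TATA box letters TATAAA, the GC box GGGCGG, the CCAAT box, the AP-1 site TGANTCA and the TEAD site CATTCC.
Bgn, chrX:73483351-73483600, plus strand: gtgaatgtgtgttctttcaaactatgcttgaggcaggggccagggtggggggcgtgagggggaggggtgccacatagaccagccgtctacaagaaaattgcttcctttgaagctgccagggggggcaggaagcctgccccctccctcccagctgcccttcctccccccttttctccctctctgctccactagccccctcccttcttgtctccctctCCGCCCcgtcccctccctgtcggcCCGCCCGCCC
Ogn, chr13:49607765-49608014, plus strand: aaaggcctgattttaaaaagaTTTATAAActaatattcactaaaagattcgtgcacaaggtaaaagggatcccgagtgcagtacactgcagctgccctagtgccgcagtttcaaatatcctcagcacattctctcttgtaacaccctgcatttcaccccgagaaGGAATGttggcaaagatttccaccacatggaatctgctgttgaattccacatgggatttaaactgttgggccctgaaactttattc
Podn, chr4:108031955-108032204, minus strand: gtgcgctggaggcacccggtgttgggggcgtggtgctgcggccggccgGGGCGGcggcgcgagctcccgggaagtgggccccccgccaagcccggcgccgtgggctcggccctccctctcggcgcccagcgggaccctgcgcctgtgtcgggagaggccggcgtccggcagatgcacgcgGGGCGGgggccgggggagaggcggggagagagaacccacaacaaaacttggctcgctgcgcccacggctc

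The Bgn window was 64.4% G and C and held the GC box letters GGGCGG 3 times, at 34, 10 and 6 bases before the start. The Podn window was 78% G and C, with 32 CpG pairs and 2 GC boxes at 202 and 70 bases. The Ogn window was 42% G and C with 4 CpG pairs and held no GC box. It held TATAAA on both strands in 1 overlapping run at 229 and 227 bases, far from the usual TATA position, and CATTCC, the core letters bound by TEAD factors, at 86 bases. The other Podn window (chr4:108030987-108031236) was 64% G and C with 7 CpG pairs and held no GC box. Over all 32851 mouse windows of this length the median was 52.4% G and C with 6 CpG pairs. GGGCGG was present in 32.7% of them, TATAAA in 12.4%, CATTCC in 12.6%, CCAAT in 33.9% and TGANTCA, an AP-1 site, in 6.75%. Among the 7 members, GGGCGG occurred in 2, TATAAA in 2 (Ogn and Aspn), CCAAT in 2 (Aspn and Prelp), CATTCC in 1 and TGANTCA in 0. A match of letters is a description of the sequence only.

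The 6 libraries held 38330019 to 46797446 gene reads, and a count of 0 allows a level of up to 3 reads, or 0.0641 to 0.0783 CPM (reads scaled to a common library total). All 9 members passed the filter of at least 10 reads in at least 2 libraries, as did 15948 genes in all. The row taken for Charme, CUFF405, an inferred match, had 5, 15 and 11 reads in the WT libraries and 0, 6 and 3 in the CharmeKO libraries, too few to serve as a strong check of the labels. Fibroblast markers summed to 19811 to 40275 CPM in WT and 25797 to 36914 CPM in CharmeKO CFs, all 11 being detected. Col1a1, Col1a2 and Vim carried most of this sum. Of the 11, 5 had a higher and 6 a lower mean in CharmeKO. Between libraries of the same replicate number, 4 (36.4%) were lower in CharmeKO each time, beside 14.0% of all genes. The number higher each time was 0, beside 16.4% of all genes. Cardiomyocyte markers summed to at most 18.5 CPM, with Myh6, Myh7, Actc1, Pln and Nppa absent from the table, and endothelial markers to at most 8.14 CPM. Tenocyte and chondrocyte markers, of cells rich in SLRPs, summed to 20.9 to 28.8 CPM in WT and 21.5 to 30.6 CPM in CharmeKO, and mesothelial markers to 39.4 to 310 and 21.7 to 345 CPM. Haematopoietic and macrophage markers ranged from 44.6 to 186 CPM in WT and 24.9 to 396 CPM in CharmeKO. In bulk RNA, fewer cells of a type and less RNA per cell cannot be told apart.

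The 9 genes together took 0.595% ± 0.113 (SD, n = 3) of the reads in WT and 0.627% ± 0.231 (SD, n = 3) in CharmeKO CFs. Bgn alone supplied 77.9% ± 10.8 of these SLRP reads in WT and 73.0% ± 13.5 in CharmeKO. Dcn supplied 9.89% ± 4.24 and 17.4% ± 9.58. Divided by the merged length of all annotated exons, mean Bgn level was 31634 ± 6240 normalised reads per kb in WT. Bgn was the highest member in 6 of 6 libraries. It exceeded Dcn by 2.57 ± 0.984 (SD over 6 libraries) on the log2 per-kb scale. The next 2 places could not be ordered per kb, since Dcn exceeded Prelp in only 2 of 6 libraries and by 0.33 ± 1.06. Before division by length (5838 bases for Dcn, 3615 for Prelp), Dcn had more reads than Prelp in each library. That log2 ratio of reads was 0.23 to 2.66, so the order of these 2 genes depends on the length used. Prelp exceeded Lum in 6 of 6, but Lum exceeded Ogn in only 4 of 6 (0.36 ± 1.31). Ogn stood above Podn in 6 of 6 libraries by 0.74 ± 0.345, and Podn above Fmod in 5 of 6. The last 2 members were far lower. Fmod exceeded Aspn by 4.02 ± 1.70, and Aspn stood above Omd in 5 of 6 libraries. The CFs thus carried a transcript pool led by Bgn, with Dcn and Prelp second, and only traces of Aspn and Omd.

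**Figure D1:**
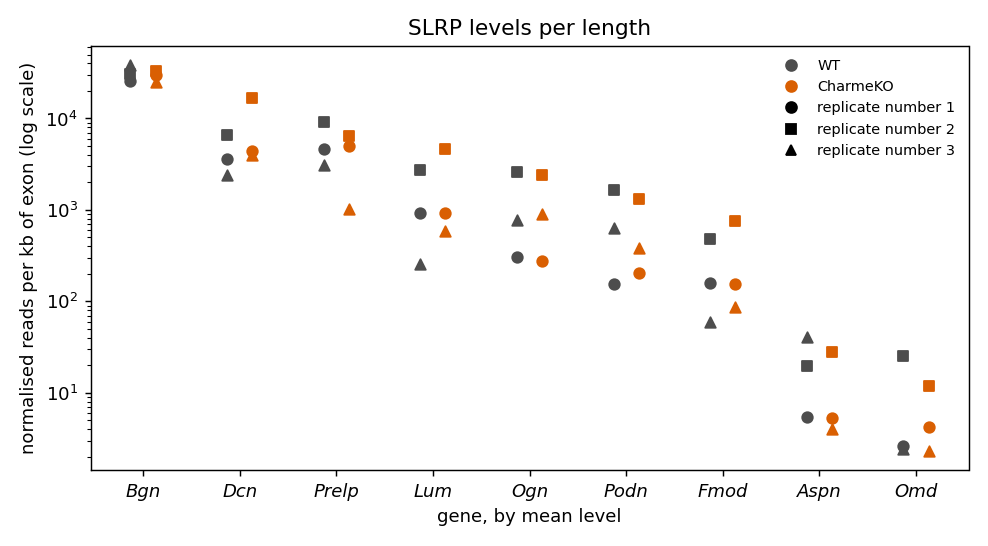
Normalised reads per kb of exon (log axis) for each SLRP gene, ordered by mean level, with 1 point per library (grey WT, orange CharmeKO, marker shape by replicate number). Bgn lies above every other member in all 6 libraries, and Aspn and Omd lie lowest.

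No SLRP gene differed between CharmeKO and WT CFs at an adjusted p under 0.05. The call rule was limma on log2(value + 1) with Benjamini-Hochberg adjustment over 15948 genes, which called 0 of 9 members and 0% of all genes (0 genes, 143 at an unadjusted p under 0.05; 0 called and 158 at that level by edgeR's quasi-likelihood test, and 8 called by DESeq2). The adjusted p was 0.9999 for each member. WT and CharmeKO values overlapped for all 9 members, whereas they did not overlap for 4.11% of genes tested. With 3 against 3 cultures the exact two-sided permutation test cannot go below 0.1.

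Libraries that carry the same replicate number deviated together, least so for number 3, and the numbers were also read as pairs. Dcn and Lum were higher in CharmeKO in all 3 pairs, which is 2 of 9 members beside 16.4% of all genes. None of the 9 was lower in all 3 pairs, against 14.0% of all genes, and 7 were mixed. With the replicate block in the limma fit, 2 of 9 members (Dcn and Lum) had an unadjusted p under 0.05 beside 5.37% of all genes, and no member passed adjustment. DESeq2 with the replicate block called 0.454% of the genes to which it gave an adjusted p, and 0 of the 9 members.

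**Figure D2:**
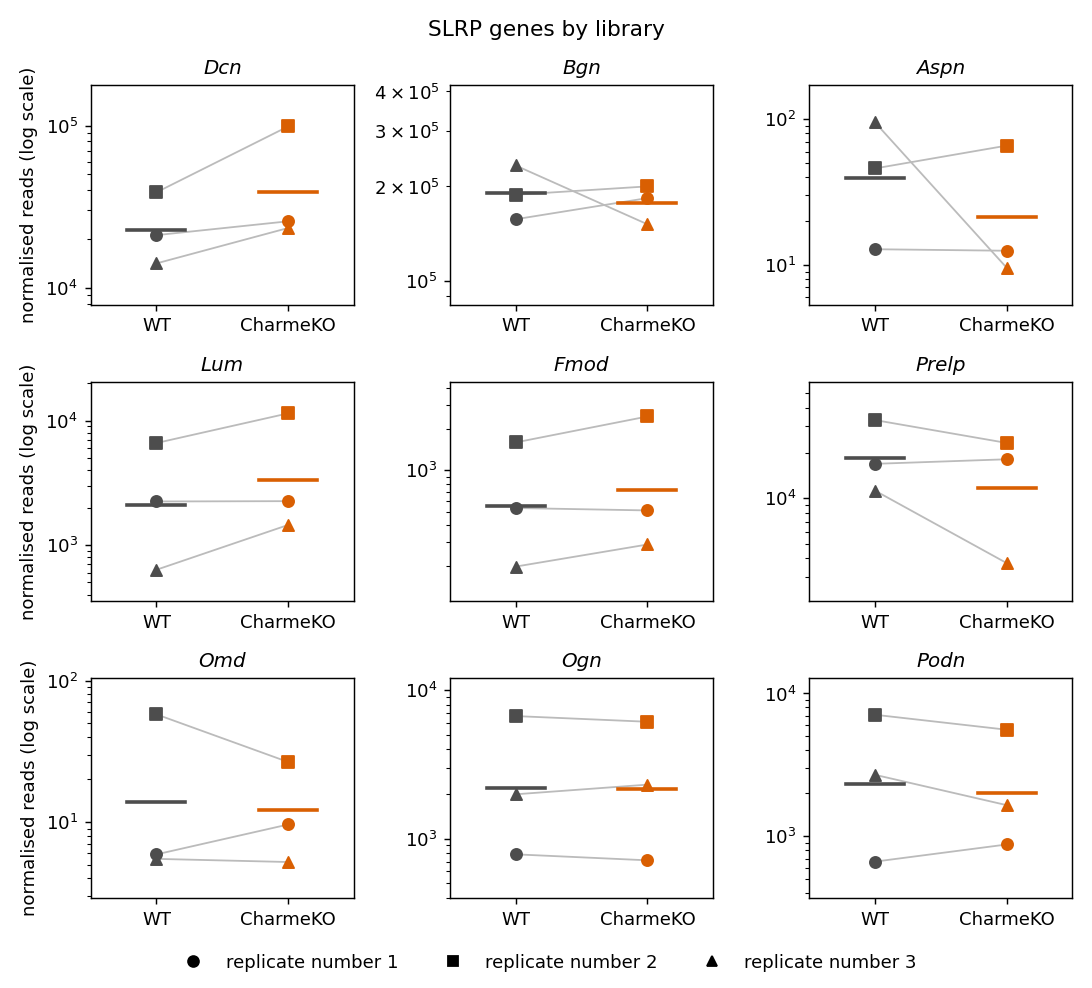
Normalised reads (log axis, 1 panel per gene) in the 3 WT and 3 CharmeKO libraries, with grey lines joining libraries of the same replicate number and horizontal bars at the mean of log2(value + 1). WT and CharmeKO points overlap in every panel, and the number 2 libraries are the highest for 7 of the 9 genes.

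Dcn, the collagen-binding and TGF-beta-binding decorin gene, stood at 21129, 38799 and 14149 normalised reads in WT cultures 1, 2 and 3 and at 25719, 98888 and 23395 in CharmeKO cultures 1, 2 and 3. The single highest library was CharmeKO 2, and the lowest was WT 3. The means were 24692 ± 12706 (SD, n = 3) in WT and 49334 ± 42930.3 (SD, n = 3) in CharmeKO. Within the pairs CharmeKO exceeded WT by 0.28, 1.35 and 0.73 on the log2 scale. The difference over all libraries was 0.79 (SE 0.647) with an adjusted p of 0.9999 by limma. With the replicate block the limma adjusted p was 0.80 and the DESeq2 adjusted p 0.177, the lowest among the 9 members. The log2 difference fell to 0.12 without CharmeKO culture 2. Of the 8 markers of smooth muscle and myofibroblasts, all had a lower mean in CharmeKO. In all 3 pairs 6 of them were lower (75%, against 14.0% of all genes). DESeq2 with the block called 2 of the 8 (Myh11 and Actg2), beside 0.454% of all genes given an adjusted p. By contrast, limma with or without the block and DESeq2 without it called 0 of the 8. The summed level of the 8 markers was 3399, 901 and 5777 CPM in WT and 3246, 289 and 725 CPM in CharmeKO, nearly equal in pair 1. Of the 7 pericyte markers, 6 had a lower mean in CharmeKO (median log2 difference -1.29, Cspg4 -3.56), with 0 called by any of these fits. In all 3 pairs 4 of the 7 were lower (57.1%, against 14.0% of all genes). The summed level of the pericyte markers, carried mostly by Pdgfrb (0.05), was 602 to 802 CPM in WT and 597 to 747 CPM in CharmeKO. The part of these cells in the Dcn values was not tested.

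Bgn, the biglycan gene, was the steadiest member. It measured 157427, 188275 and 233108 normalised reads in WT and 183726, 200094 and 151747 in CharmeKO, so that its highest library was only 1.54 times its lowest. The means were 192937 ± 38055 (SD, n = 3) and 178523 ± 24590.2 (SD, n = 3). CharmeKO was higher by 0.22 and 0.09 on the log2 scale in pairs 1 and 2 and lower in pair 3 (-0.62). The overall log2 difference was -0.10 (SE 0.390), and it turned to 0.043 without WT culture 3 and to 0.0096 without CharmeKO culture 3.

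Aspn, which encodes asporin, was near the detection filter, with 13, 43 and 87 reads in WT and 13, 67 and 11 in CharmeKO. The 3 pairs gave log2 differences of -0.03, 0.51 and -3.19, so the mean difference of -0.90 (SE 0.994) came mainly from pair 3. Its levels followed those of Bgn across the libraries (r = 0.900, n = 6).

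Lum, the gene of the keratan sulphate proteoglycan lumican, had 2243, 6626 and 633 normalised reads in WT and 2256, 11491 and 1453 in CharmeKO. Its highest library was 18.2 times its lowest, the widest range among the members. Both number 2 cultures were high and both number 3 cultures low. The log2 differences within pairs were 0.0084, 0.79 and 1.20, so that pair 1 showed almost none. The overall difference was 0.67 (SE 1.05). It was -0.20 without WT culture 3 and -0.22 without CharmeKO culture 2. DESeq2 with the block gave an adjusted p of 0.533.

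Fmod, the gene of fibromodulin, which binds the same region of collagen as lumican, followed it closely (r = 0.990 over 6 libraries). The values were 531, 1603 and 198 normalised reads in WT and 510, 2482 and 287 in CharmeKO. Its pair differences were -0.06, 0.63 and 0.54 on the log2 scale, with an overall difference of 0.37 (SE 1.01). This became -0.37 without WT culture 3 and -0.53 without CharmeKO culture 2.

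Prelp, the gene of prolargin, which anchors basement membranes to collagen, measured 16923, 33068 and 11257 normalised reads in WT and 18145, 23303 and 3713 in CharmeKO. CharmeKO culture 3 was the lowest of the 6 libraries. The pair differences on the log2 scale were 0.10, -0.50 and -1.60. The overall difference of -0.67 (SE 0.754) became 0.15 without that culture.

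Omd, the gene of osteoadherin, a bone matrix SLRP, had 6, 54 and 5 reads in WT and 10, 27 and 6 in CharmeKO. Only the number 2 cultures held more than 10 reads. Its log2 difference was -0.18 (SE 1.06), changing to 0.87 without WT culture 2 and to 0.31 without CharmeKO culture 3.

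Ogn, the gene of osteoglycin, was almost equal between genotypes within each pair. It measured 783, 6714 and 1991 normalised reads in WT and 713, 6146 and 2313 in CharmeKO, with pair differences of -0.13, -0.13 and 0.22 on the log2 scale. Over all libraries the difference was -0.015 (SE 0.9999). It changed to 0.79 without WT culture 2 and to 0.78 without CharmeKO culture 1.

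Podn, the gene of podocan, followed Ogn (r = 0.969 over 6 libraries). It had 666, 7099 and 2699 normalised reads in WT and 878, 5578 and 1655 in CharmeKO. The pair differences were 0.40, -0.35 and -0.71 on the log2 scale. The overall difference of -0.22 (SE 0.995) became 0.58 without WT culture 2 and 0.38 without CharmeKO culture 1.

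**Figure D3:**
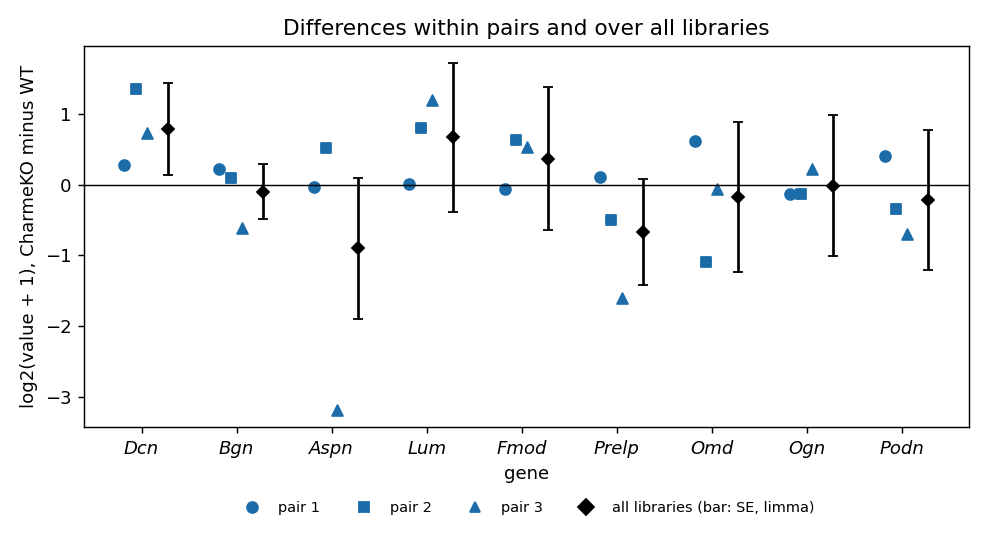
Log2(value + 1) in CharmeKO minus WT for each SLRP gene, as 3 blue markers for the pairs of libraries with the same replicate number and a black diamond with its SE (limma) for all libraries. For Dcn and Lum all 3 markers lie above 0, for Lum pair 1 only just (0.0084), and the SE bar of each gene other than Dcn spans 0.

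For 7 of the 9 members most of the spread went with the replicate number rather than with genotype. The number has more levels than genotype, so a larger share falls to it even where neither has an effect. The number took 99.6% of the variance of log2(value + 1) for Ogn, 96.5% for Fmod, 96.0% for Podn, 91.2% for Omd, 90.9% for Lum, 76.6% for Prelp and 74.2% for Dcn. Bgn and Aspn differed from these, with 15.2% and 44.6%. Genotype took at most 19.7%, for Dcn. The median share of the number was 90.9% over the members and 73.8% over all genes tested, whereas the median share of genotype was 5.88% and 5.91%. The members also ranged more widely between libraries, with a median ratio of highest to lowest library, taken on value + 1, of 9.40 against 2.11 over all genes tested. The number 2 cultures, in which all members other than Bgn and Aspn were highest, had the lowest summed level of 12 cell cycle markers (216 CPM in WT and 211 CPM in CharmeKO, against 513 to 624 CPM in the other libraries). The part of proliferation in the SLRP levels was not tested.

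**Figure D4:**
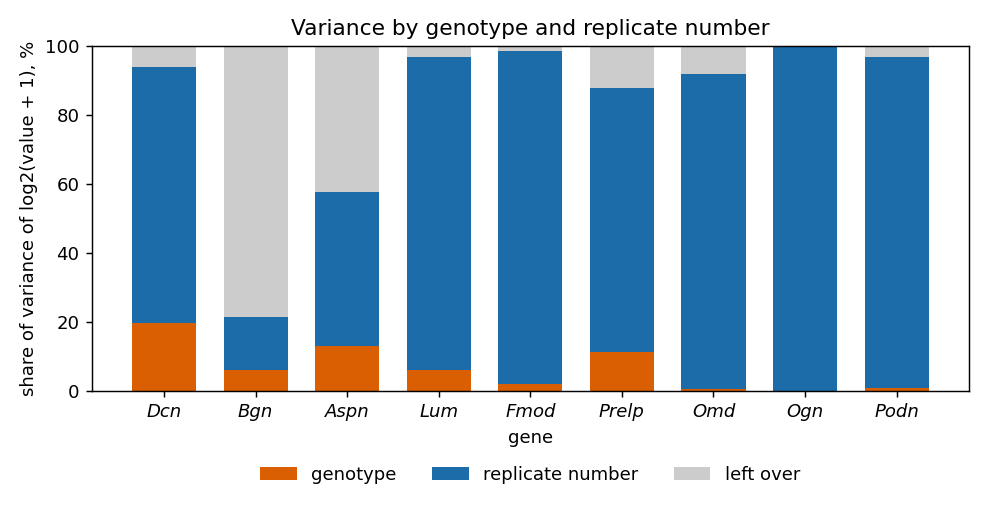
Share of the variance of log2(value + 1) over 6 libraries, in percent, taken by genotype (orange), by replicate number (blue) and left over (grey), as stacked bars for each SLRP gene. Replicate number fills most of the bar except for Bgn (15.2%) and Aspn (44.6%).

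Ratios between 2 members within a library remove the library's depth. Among the 36 possible ratios, 2 separated the genotypes without overlap, beside 4.16% of the ratios of all pairs of genes tested. The 3 pairs of libraries moved the same way for 11 of 36, beside 28.5%. Both shares were near these backgrounds, and the ratios given here were chosen after their values were seen, with no test. The log2 ratio of Dcn to Prelp was 0.32, 0.23 and 0.33 in WT and 0.50, 2.09 and 2.66 in CharmeKO. It was nearly constant in the WT cultures (0.29 ± 0.055, SD, n = 3) and spread widely in the CharmeKO cultures (1.75 ± 1.11, SD, n = 3). The log2 ratio of Lum to Fmod was 2.08, 2.05 and 1.67 in WT and 2.14, 2.21 and 2.34 in CharmeKO. Dcn relative to Bgn, the other class I proteoglycan with sulphated chains, was higher in CharmeKO by 0.061, 1.26 and 1.34 in the 3 pairs, with overlapping groups.

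**Figure D5:**
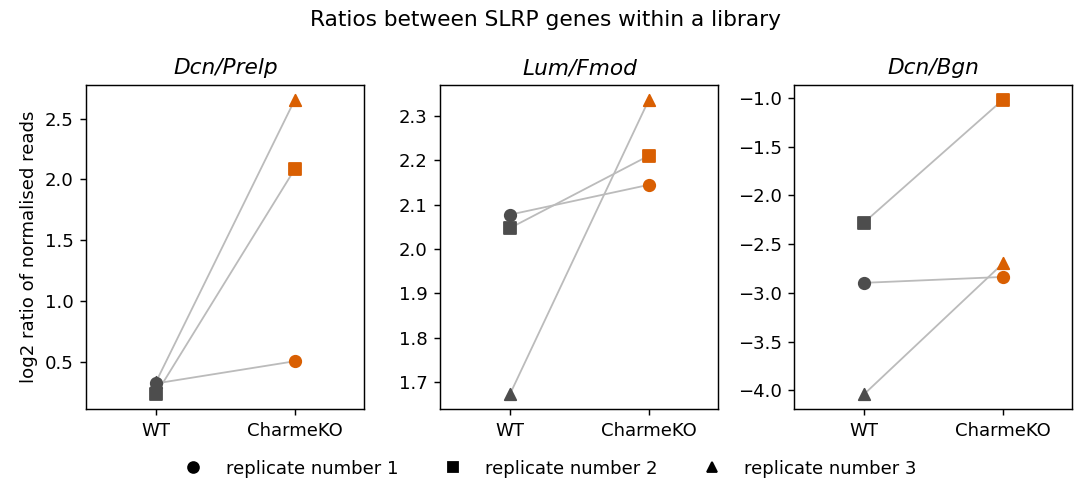
Log2 ratios of normalised reads between 2 SLRP genes in each library, with lines joining libraries of the same replicate number. All CharmeKO points lie above all WT points for Dcn/Prelp (0.50 to 2.66 against 0.23 to 0.33) and Lum/Fmod, while Dcn/Bgn overlaps.

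The tested genes most like each member over the 6 libraries were read from Pearson's r of log2(value + 1), among 11582 genes with a mean of at least 100. For Dcn they were Rela (r = 0.992), Ddrgk1 (0.990) and Mtarc2 (0.989). For Bgn they were Aoc3 (0.986), Aoc2 (0.983) and Il1rl1 (0.977). Lum was nearest to Rasa3 (0.995), Man2b2 (0.991) and Fmod (0.990), and Fmod to Dhtkd1 (0.993) and Lum. Ogn was nearest to Cacnb1, Ikzf4 and Meak7 (0.998 to 0.999), Podn to Dnm1, Nlgn2 and Txnip (0.994 to 0.999) and Prelp to Mill2, Bdh2 and Dock10 (0.995 to 0.998). The low-count members Omd (Csdc2, Cdin1 and Adssl1) and Aspn (Hspa12a, Tom1l1 and Zfp341) were compared with 11583 genes. Since all the values come from the same 6 libraries, these are descriptions of a shared profile.

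Genes that modify, cut or bind SLRPs were read from 6 lists, and limma called none of their members between genotypes. Of 23 genes of chondroitin and dermatan sulphate chain synthesis, 9 had a higher and 14 a lower mean in CharmeKO, with a median log2 difference of -0.079 against 0.0022 for all genes. The sulphotransferase gene Chst15 had 141, 274 and 397 normalised reads in WT and 98.1, 243 and 142 in CharmeKO, lower in each pair (-0.72, SE 0.510). Chst12 (-0.27) and Chsy3 (-0.40) were the next by p. For keratan sulphate synthesis and tyrosine sulphation, 4 genes were higher and 3 lower (median 0.0037). Chst1, which sulphates galactose in keratan sulphate, was lower in CharmeKO in each pair, with log2 differences of -0.48, -0.58 and -0.67, while B3gnt7, with at most 14.9 normalised reads in any library, had a log2 difference of -1.08 and Tpst2 of 0.23.

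Of 11 genes listed for SLRP processing and cleavage, 8 had a higher and 3 a lower mean (median 0.15). The list held proteases and also procollagen C-proteinase enhancers, which are not proteases. Bmp1, the procollagen C-proteinase that also removes the propeptide of biglycan, was slightly higher in each pair (0.22, SE 0.257), whereas the related Tll1 was lower in each pair (-0.82, -3.33 and -0.23). Htra1 had a log2 difference of -0.58. None was called. Of 15 collagens and fibril partners, 7 were higher and 8 lower (median -0.12). Eln, the elastin gene, had 2879, 245 and 776 normalised reads in WT and 1562, 61.9 and 130 in CharmeKO, lower in each pair. It was not called by limma (-1.80, SE 1.37), and DESeq2 with the replicate block called it with an adjusted p of 0.00103, as the only listed gene. Col5a1 (-0.49) and Fbn1 (-0.72) were lower in mean but not called.

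Of 22 growth factors and receptors bound by SLRPs, 6 had a higher and 16 a lower mean in CharmeKO (median -0.13). Of these 22, 6 were lower in all 3 pairs, or 27.3% against 14.0% of all genes. The same share was 28.6% for keratan sulphate synthesis and tyrosine sulphation and 20% for collagens and fibril partners. It was 17.4% for chondroitin and dermatan sulphate synthesis, 9.09% for SLRP processing and cleavage and 0% for the other SLRP genes. The opposite share, higher in all 3 pairs, was 16.4% of all genes and 4.55% for these growth factors and receptors. It was 28.6% for keratan sulphate synthesis and tyrosine sulphation, 27.3% for SLRP processing and cleavage and 20% for the other SLRP genes. Chondroitin and dermatan sulphate synthesis had 4.35%, and collagens and fibril partners 0%. Tgfb2, a TGF-beta ligand, had 2977, 1418 and 1268 normalised reads in WT and 1909, 430 and 1093 in CharmeKO, with pair differences of -0.64, -1.72 and -0.21. Bmp2 (-1.16, SE 0.520) and Igf1r (-0.30, SE 0.264, only -0.027 in pair 2) were also lower in each pair. None of the 22 was called by limma. Of 5 other SLRP genes tested, 1 had a higher and 4 a lower mean (median -0.085), and Chadl (0.35) was higher in each pair, Podnl1 (-0.09) and Ecm2 (-0.20) were mixed, and Epyc was read 1 to 14 times in each library beside the Dcn and Lum genes.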

How the data were processed

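Poly(A) RNA of 6 cultures of mouse CFs (3 WT, 3 CharmeKO) was sequenced. The authors aligned reads with STAR, counted them per gene (reverse strand, Ensembl release 87 with the Charme locus added) and removed genes with few reads. The deposited signal values were read counts divided by 1 DESeq2 size factor per library. Aligner versions were not given in the sources used here. All values (100% of 116676, tolerance 1e-06) were whole multiples of 1 step per library, so whole reads were recovered, and edgeR and DESeq2 were run on them as alternatives. The labels and methods name GRCm39 (the labels also GRCh38) whereas Ensembl 87 annotates GRCm38, and the table holds no coordinates, so positions come from GENCODE M21 and RefSeq and give location only. Genes reaching 10 reads in 2 or more libraries were tested with limma (3.58.1, R 4.3.3, trend) on log2(value + 1), pseudocount 1, with genotype only and Benjamini-Hochberg adjustment, threshold 0.05. edgeR 4.0.16 and DESeq2 1.42.0 served as alternatives, along with other pseudocounts, filters, scalings, each library left out, and a replicate block. The fits were run on simulated data first. A pass condition was set only for limma without spread between replicate numbers, which is unlike these data. Same-number libraries correlated in their deviations from the group means (r = 0.762, 0.514 and 0.217, each above 0.1), which by the rule set for this check pairs the numbers. Libraries of unlike number gave -0.643 to 0.222, the highest (WT 2 with CharmeKO 3) being above the same-number value of pair 3. The labels do not say what a number marks. Exact two-sided permutation tests enumerated all 20 assignments of genotype. Read-based floors cover counting error only. Nothing in the labels says that the libraries of a group came from separate animals. The paper states at least 3 independent primary isolations per experiment, without saying which animals gave these libraries. The p-values therefore measure only the spread between these samples, which may be technical. The 9 members and all lists were chosen with earlier results of these data known. Genes named in the text were the members, the 3 with the lowest limma p in each list, any called gene, the 3 most like each member, and markers, and 1 gene that this rule names is not reported here.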

Additional observations from a re-analysis of the deposited data

How the results depend on the processing

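No member was called under any setting, 0 of 9 each time, or 0 of 7 with a mean of at least 50 reads. The only gene of the 6 pathway lists called was Eln, 1 gene with DESeq2 and the replicate block. Ogn turned to 0.019 with plain library sizes. With 1 library left out the log2 differences ranged from -0.77 to 0.79 for Ogn, -0.76 to 0.87 for Omd, -1.12 to 0.58 for Podn, -0.24 to 0.043 for Bgn, -0.22 to 1.49 for Lum, -0.53 to 1.14 for Fmod and -1.17 to 0.15 for Prelp. Dcn stayed positive (0.12 to 1.17) and Aspn negative (-1.73 to -0.26). The cause of these changes was not tested. The limma fit with the replicate block gave Dcn an adjusted p of 0.80 and called no member and no gene of the 6 pathway lists. A mean of at least 50 reads leaves 7 members, without Omd and Aspn, whose counts limit their precision.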
